A study of Mus musculus with 130 samples.

Results

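AXB and BXA mice are recombinant inbred strains made from the same parents, A/J and C57BL/6J, in opposite directions of the cross. Of the 130 liver RNA libraries of the series, 10 came from strains whose label starts with AXB and 10 from strains whose label starts with BXA, and these 20 libraries were compared. The AXB strains were AXB4, AXB5, AXB8, AXB10, AXB12, AXB13, AXB15, AXB19, AXB19a and AXB19b, and the BXA strains were BXA1, BXA2, BXA4, BXA8, BXA11, BXA12, BXA13, BXA14, BXA16 and BXA26, all with the suffix /PgnJ in the labels. Every mouse was a male that ate chow for 4 weeks and then a diet with 2% carbonyl iron (20000 ppm) for 6 weeks, and the families have no library without the iron diet here. The panel they belong to holds 115 libraries of 114 strains and includes 1 A/J and 1 C57BL/6J mouse on the same diet, which are given beside the families as single values. There was 1 mouse per strain, so the spread between strains within a family holds genetic, individual and technical differences together. The labels give no age and no batch.

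In such a cross the mother passes on the mitochondrial genome and the father the Y chromosome. By the naming convention AXB strains descend from A/J mothers and C57BL/6J fathers and BXA strains from the reverse, which the labels do not restate. Breeding brother to sister then fixes a different mosaic of both parents on the autosomes and the X chromosome in each strain. By this convention the mitochondrial genome and the Y chromosome are the parts of the genome that would separate the families as a whole. Whether their sequences differ between these lines was not tested. An autosomal locus can differ between them by how the parental alleles fell in these strains. Sons of the first cross take their X chromosome from the mother alone, so its parental shares can also depend on cross direction.

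AXB19, AXB19a and AXB19b are substrains, and their libraries are not independent strains. In every test their counts were summed into 1 line, which left 8 AXB lines and 10 BXA lines. Expression is given as CPM (counts per 1000000 counts, scaled with TMM factors), and for the AXB19 line as the mean of its 3 libraries. Counts of libraries nearer 1 parent take the substrains as 3 separate libraries, although they are not independent. Differences are on the log2 scale, AXB minus BXA, with 95% intervals from the quasi-likelihood fit of edgeR. Total counts per library ran from 10.4 to 14.9 M (M is 1000000 counts). No pair of libraries was alike within counting noise, the smallest mean chi-square per gene over all pairs being 24.2 where counting noise alone gives 1.

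No gene was called different between the families. Of 13115 genes tested, 0 (0%) passed an adjusted p of 0.05 with edgeR's quasi-likelihood test and Benjamini-Hochberg adjustment, and the smallest adjusted p was 0.9997. At an unadjusted p under 0.05 there were 123 genes higher in AXB (0.938%) and 162 higher in BXA (1.24%), 285 in all. Evenly spread p-values would put a share of 0.05 of the genes under this threshold. The 285 genes were fewer than that and so are no surplus over chance. DESeq2 also called 0 genes, with 301 under an unadjusted p of 0.05. No gene (0%) had levels that did not overlap between the 8 AXB lines and the 10 BXA lines.

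The intervals bound what could have been missed. The median absolute difference was 0.075 and the median half-width of the 95% interval was 0.28. For 11963 genes (91.2%) the whole interval lay within 2-fold, and for 9693 (73.9%) within 1.5-fold. Estimates over 2-fold were given for 68 genes (0.518%). Spread between lines was of similar size in both families, with a median SD of log2 CPM of 0.26 in AXB and 0.28 in BXA, and 42.5% of the genes had the larger SD in AXB. On the first principal component, with 18.7% of the variance, AXB lines lay between -31.6 and 20.2 and BXA lines between -24.2 and 31.4, so the families overlapped. By chromosome, the share of genes under an unadjusted p of 0.05 was highest on chromosome 13, at 19 of 503 genes (3.78%). It was 3.20% on the X chromosome, from 12 genes, and 0 of 8 genes on the Y chromosome passed.

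The mitochondrial genome encodes subunits of respiratory complexes I, III and IV and of ATP synthase. Its 13 protein-coding genes took 6.52%, 7.03% and 9.11% of all counts (lowest, median and highest) in the AXB lines and 5.83%, 7.64% and 9.82% in the BXA lines. The ranges overlapped almost wholly, and the highest libraries were AXB4 and BXA11. Means were 7.38% ± 0.822 (SD, n = 8) and 7.64% ± 1.04 (SD, n = 10), a difference of -0.262 percentage points (95% interval -1.21 to 0.680, exact two-sided permutation test p = 0.575 over 43758 arrangements). The single A/J library had 8.31% and the single C57BL/6J library 7.68%.

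Of these 13 genes, 4 had estimates above 0 and 9 below, with a median of -0.026, and none was called. All 13 intervals lay within 2-fold. The 2 ends were mt-Nd3 (complex I) and mt-Co2 (complex IV). mt-Nd3 was at 44.1, 59.5 and 94.4 CPM in AXB lines and 56.3, 72.3 and 87.0 CPM in BXA lines, a difference of -0.22 (-0.53 to 0.086, unadjusted p = 0.149). mt-Co2 was at 663, 1699 and 2693 CPM in AXB and 545, 1129 and 1907 CPM in BXA, a difference of 0.36 (-0.19 to 0.92, unadjusted p = 0.185). In both genes the BXA range lay within or across that of AXB. The most precise bound was that of mt-Nd4l (complex I), at -0.026 (-0.22 to 0.17), and mt-Co1, the catalytic subunit of complex IV, differed by 0.014 (-0.20 to 0.23).

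Nuclear genes of the same machinery were likewise uncalled. Among 36 nuclear subunits of oxidative phosphorylation, 19 had higher and 17 lower estimates in AXB, the median was 0.0046 and all 36 intervals lay within 2-fold. The ends were Sdha (complex II) at -0.10 and Ndufb10 (complex I) at 0.089. Of 20 genes for mitochondrial transcription and translation, 11 were higher and 9 lower, with a median of 0.0080. Over all 13115 genes the median difference was -0.0017.

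Y-linked genes are the paternal counterpart. The summed level of the listed Y-linked genes was 131, 167 and 206.7 CPM in AXB lines and 151, 163 and 181 CPM in BXA lines. AXB lines held both the lowest (AXB8) and the highest (AXB4) value. The means were 164.8 ± 21.6 CPM (SD, n = 8) and 164.7 ± 9.07 CPM (SD, n = 10), and the difference in mean log2 values was -0.0078 (95% interval -0.14 to 0.13, exact two-sided permutation test p = 0.907). The parental libraries had 179 CPM (A/J) and 165.6 CPM (C57BL/6J).

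Of 7 listed Y-linked genes, 4 were tested. Eif2s3y, a translation initiation factor subunit, was at 19.1, 40.1 and 54.8 CPM in AXB and 33.98, 42.8 and 48.8 CPM in BXA, a difference of -0.13 (-0.41 to 0.15). Uty, which encodes a homologue of an X-linked histone demethylase, differed by 0.066 (-0.10 to 0.23). The RNA helicase gene Ddx3y differed by 0.056 (-0.097 to 0.21) and the histone demethylase gene Kdm5d by -0.0073 (-0.17 to 0.16). Zfy1 and Zfy2 were at 0 in every library.

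**Figure D1:**
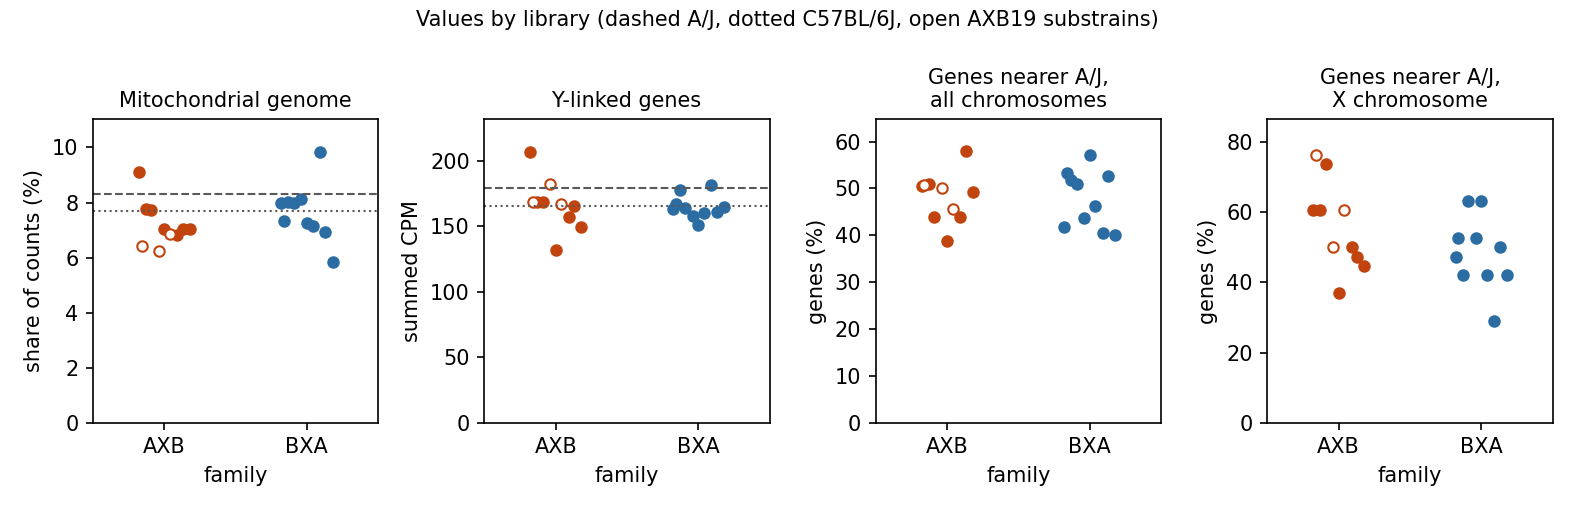
Values by library in the AXB and BXA families: share of counts from the mitochondrial genome (%), summed CPM of Y-linked genes, and share of genes nearer the A/J level over all chromosomes (parents over 4-fold apart) and on the X chromosome (parents over 2-fold apart). Points are libraries, open points the AXB19 substrains, lines the single parental libraries, and in each panel the families overlap.

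The mosaic of each strain was not genotyped here, and expression stood in for it, at genes whose level differed between the parental libraries. With more than 4-fold between A/J and C57BL/6J and more than 3 CPM in 1 of them, 442 genes qualified, and each library was scored by the share of them that lay nearer A/J on the log2 scale. The AXB lines had 38.7%, 49.1% and 57.9% (lowest, median and highest) and the BXA lines 40.05%, 48.5% and 57.2%. The means were 47.98% ± 5.80 (SD, n = 8) and 47.8% ± 6.14 (SD, n = 10), a difference of 0.155 percentage points (95% interval -5.90 to 6.20, exact two-sided permutation test p = 0.957). AXB8 was the lowest line and AXB15 the highest. Each parent had 1 library, so some of the 442 genes may differ between these mice and not between the strains.

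On the X chromosome 11 of the 442 genes remained. Both families ran from 27.3% to 63.6%, and the difference was -0.227 percentage points (95% interval -12.2 to 11.9, exact two-sided permutation test p = 1). With the wider set of 38 X-linked genes over 2-fold apart between the parents, AXB lines had 54.5% ± 11.8 (SD, n = 8) and BXA lines 48.4% ± 10.4 (SD, n = 10). The difference of 6.07 percentage points (95% interval -4.92 to 17.2) gave p = 0.277 in the exact two-sided permutation test. This is 1 of 5 whole-library comparisons, and the Benjamini-Hochberg adjusted p over the 5 exact permutation tests was 1 for each. The lines furthest apart were AXB10 at 73.7% and BXA11 at 28.9%.

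**Figure D2:**
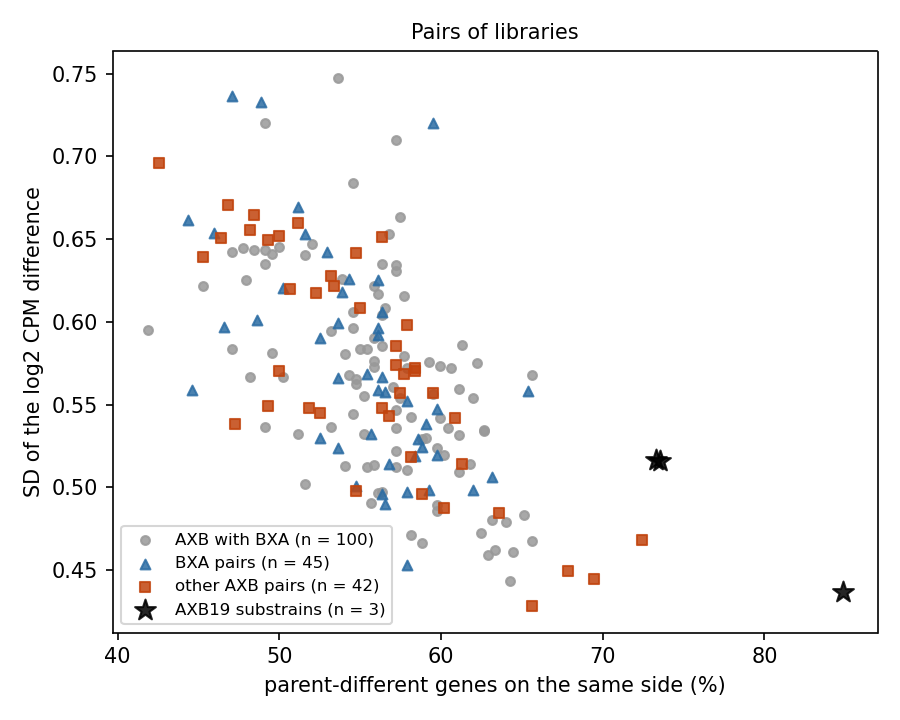
Every pair of the 20 libraries by the share of the 442 parent-different genes on the same side (%, horizontal) and the SD over 10121 genes of their log2 CPM difference (vertical). The AXB19 substrain pairs lie at 73.3% to 84.8%, other pairs within AXB reach 72.4%, and pairs across families end at 65.6%.

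Of all pairs, AXB19 and AXB19b lay most often on the same side of the parental levels, a score of expression and not of genotype. They lay on the same side in 84.8% of the 442 genes, while AXB19a matched AXB19 in 73.5% and AXB19b in 73.3%. Other AXB pairs shared 42.5% to 72.4%, with a median of 55.7% and AXB5 with AXB12 at the top. With parents over 8-fold apart, AXB19a and AXB19b shared 72.0%, below AXB5 and AXB12 at 72.9%. BXA pairs shared 44.3% to 65.4% (median 56.1%) and pairs of 1 AXB and 1 BXA library 41.9% to 65.6% (median 56.4%), so libraries of 1 family were no nearer each other by these medians than libraries of different families. By overall expression no substrain pair was the closest. The SD of the log2 difference over 10121 genes was 0.44 for AXB19 with AXB19b and 0.52 for each pair with AXB19a, against 0.43 to 0.70 for other AXB pairs. As examples between substrains, the methyltransferase gene Smyd2 was at 11.8 CPM in AXB19, 10.8 in AXB19a and 19.9 in AXB19b. The mitochondrial share was 6.25%, 6.86% and 6.41% in the same order.

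The genes with the smallest p are given as values, since none was called. The strongest among those higher in AXB was Ang (chromosome 14 at 51091150 to 51102009, GRCm38), which encodes the secreted ribonuclease angiogenin. It was at 117, 208 and 245 CPM in AXB lines and 103, 128 and 218 CPM in BXA lines. AXB12 was low among the AXB lines and BXA4 high among the BXA lines. The difference was 0.53 (0.20 to 0.86, unadjusted p = 0.00330, adjusted p = 0.9997), with A/J at 126 CPM and C57BL/6J at 209 CPM. Rnase4, whose gene overlaps Ang on the same strand, differed by 0.052 (-0.37 to 0.47), and reads of the shared stretch cannot be told apart.

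Triobp, an actin-binding protein gene, differed by 0.24 (0.086 to 0.39), with 14.05 to 19.9 CPM in AXB and 12.1 to 16.1 CPM in BXA, but by 0.052 with limma on log2(TPM + 1) (unadjusted p = 0.717). Gfm2 (chromosome 13 at 97137937 to 97181195) encodes a mitochondrial ribosome recycling factor. It was at 40.3, 45.7 and 48.7 CPM in AXB and 29.9, 40.7 and 43.6 CPM in BXA, a difference of 0.21 (0.073 to 0.36), and the parents were at 49.5 (A/J) and 33.2 CPM (C57BL/6J). Ahsa1, an activator of the chaperone HSP90, differed by 0.21 (0.060 to 0.35), with A/J at 53.99 and C57BL/6J at 36.9 CPM. With limma on log2(TPM + 1) the difference was 0.18 for Gfm2 (unadjusted p = 0.153) and 0.11 for Ahsa1 (unadjusted p = 0.291). The median over all genes in that fit was itself lower, at -0.043 against -0.0017 in the main fit.

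Serpina1e had the largest difference of these 10 genes, and it rested on 1 mouse. This member of the alpha-1 antitrypsin cluster (chromosome 12 at 103946931 to 103958975) was at 8877 CPM in AXB10, at 31.1 to 573.5 CPM in the other AXB libraries and at 19.6 to 434 CPM in the BXA lines. The estimate was 3.53 (1.14 to 5.92, unadjusted p = 0.00618), and without AXB10 it was 0.67 (unadjusted p = 0.378). Its near-identical neighbours Serpina1a, Serpina1b, Serpina1c and Serpina1d differed by 0.14, 0.099, 0.26 and 0.095, and reads can be shared among the copies.

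Among the genes higher in BXA, Olfr775 had the smallest p of all genes. This olfactory receptor gene (chromosome 10 at 129248412 to 129253924) was at 1.47, 1.71 and 1.97 CPM in AXB lines and 1.61, 2.90 and 5.37 CPM in BXA lines. No AXB library reached 2 CPM, while 7 BXA libraries lay nearer A/J (4.73 CPM) than C57BL/6J (1.051 CPM). The difference was -0.81 (-1.25 to -0.38, unadjusted p = 9.66e-04), at a level of a few CPM, and -0.35 with limma on log2(TPM + 1), where the pseudocount shrinks low genes.

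Soat2 (chromosome 15 at 102150526 to 102163469) encodes the enzyme that esterifies cholesterol in hepatocytes. It was at 31.2, 34.8 and 37.9 CPM in AXB and 32.5, 42.2 and 55.2 CPM in BXA. Only BXA12 and BXA26 lay within the range of the AXB lines. The difference was -0.33 (-0.51 to -0.15, unadjusted p = 0.00103, adjusted p = 0.9997), and the parents were at 38.4 (A/J) and 48.8 CPM (C57BL/6J).

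Smyd2, a lysine methyltransferase gene, was at 8.24, 9.50 and 14.2 CPM in AXB and 8.20, 17.2 and 22.5 CPM in BXA, a difference of -0.64 (-1.03 to -0.25). Afp, the fetal serum protein alpha-fetoprotein, was at 1.01, 1.51 and 2.14 CPM in AXB and 1.31, 2.71 and 3.66 CPM in BXA, a difference of -0.71 (-1.16 to -0.26). For Afp, 8 of 10 AXB libraries and 3 of 10 BXA libraries lay nearer A/J (1.12 CPM) than C57BL/6J (3.76 CPM). The 8 AXB libraries include the substrains AXB19, AXB19a and AXB19b. Olfr328, another olfactory receptor gene, differed by -0.85 (-1.41 to -0.29) at levels of 0.234 to 2.04 CPM, and by -0.27 with limma on log2(TPM + 1).

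**Figure D3:**
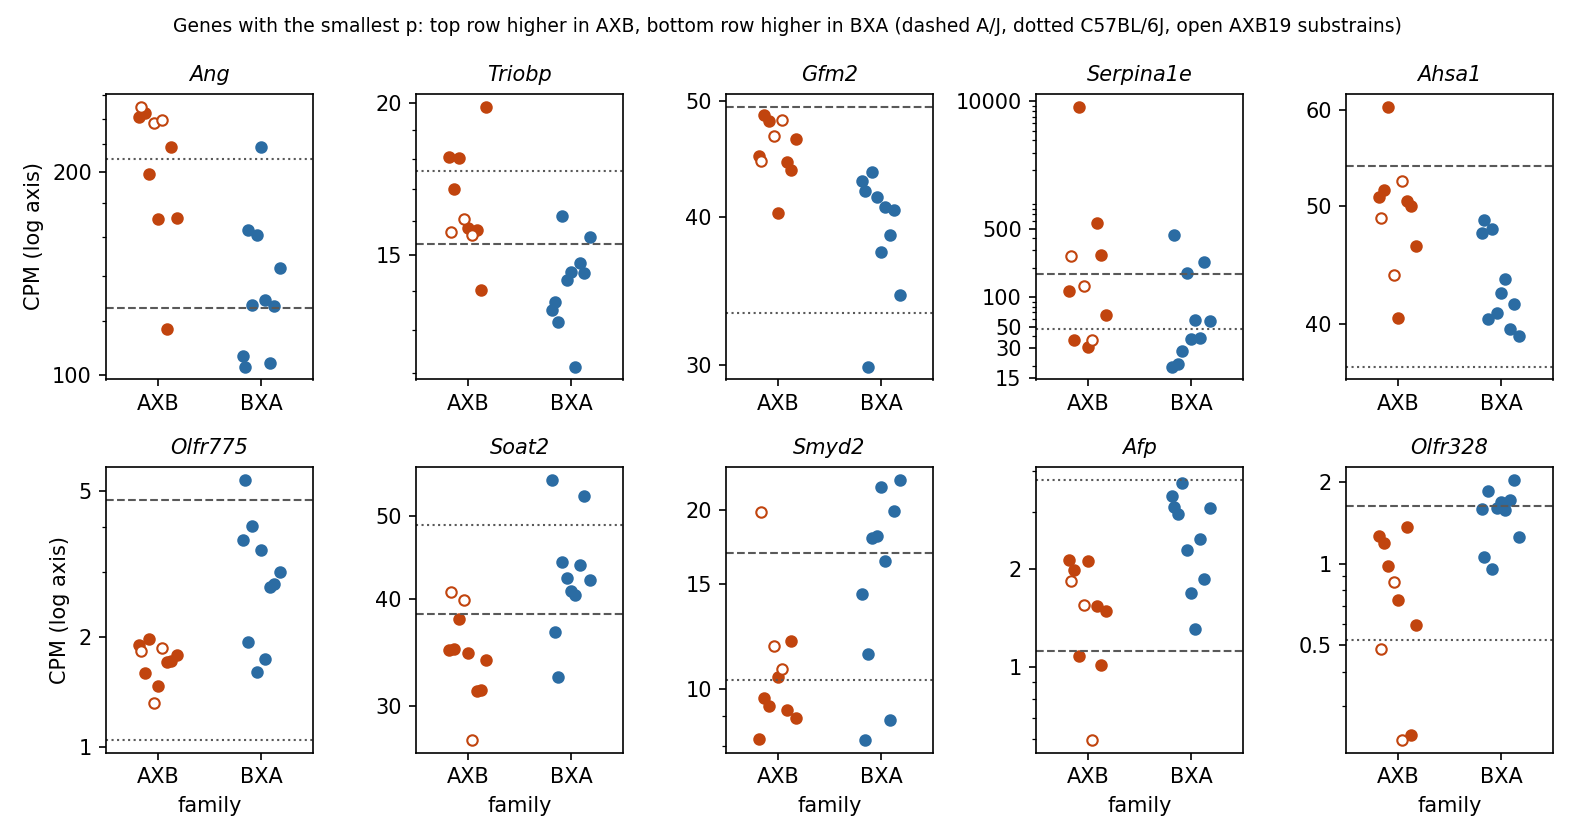
CPM by library (log axis) of the 5 genes with the smallest p in each direction. Points are libraries, open points the AXB19 substrains, dashed and dotted lines the single A/J and C57BL/6J libraries, and in every gene the ranges of the families overlap.

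Hepatic iron balance turns on hepcidin, the hormone encoded by Hamp that makes cells degrade the iron exporter ferroportin. Hepatocytes set its level from BMP6, released by sinusoidal endothelial cells under iron loading, through SMAD signalling and the membrane proteins HFE, TFR2 and hemojuvelin. All 35 listed iron genes were tested and none was called. Of these, 22 had higher and 13 lower estimates in AXB, with a median of 0.028, and 33 intervals lay within 2-fold.

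Among the signals, Hamp (chromosome 7 at 30942368 to 30944032) was at 723, 924 and 1053 CPM in AXB lines and 664, 921 and 1080 CPM in BXA lines. The AXB range lay inside that of BXA. Means were 911 ± 130 CPM (SD, n = 8) and 905 ± 125 CPM (SD, n = 10), a difference of 0.0084 (-0.20 to 0.22), with A/J at 899 and C57BL/6J at 826 CPM. Hamp2, a copy that can share reads with Hamp, was at 50.6, 129 and 224 CPM in AXB and 89.9, 167 and 245 CPM in BXA, a difference of -0.27 (-0.74 to 0.21).

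Bmp6 was at 18.7, 25.1 and 30.7 CPM in AXB and 18.2, 24.6 and 34.1 CPM in BXA, a difference of 0.028 (-0.24 to 0.29). The parents were at 15.04 (A/J) and 36.1 CPM (C57BL/6J), and every line of either family lay between them. Bmp2, a second endothelial BMP, differed by -0.16 (-0.38 to 0.059). Targets of the pathway had wider intervals. Id1 differed by -0.019 (-0.42 to 0.38), Smad7 by -0.023 (-0.46 to 0.42), Smad6 by 0.19 (-0.26 to 0.64) and Atoh8 by 0.10 (-0.32 to 0.52).

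The sensors and their protease were bounded more closely. Tfr2 differed by 0.093 (-0.14 to 0.33), Hfe by 0.059 (-0.20 to 0.32) and Hfe2, which encodes hemojuvelin, by -0.017 (-0.25 to 0.22). Tmprss6, the protease that cleaves hemojuvelin, was at 394 ± 47.1 CPM (SD, n = 8) in AXB and 386 ± 42.99 CPM (SD, n = 10) in BXA, a difference of 0.027 (-0.15 to 0.21).

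For export, storage and uptake, Slc40a1 (ferroportin) was at 264, 330.9 and 460 CPM in AXB and 273, 368 and 554 CPM in BXA, a difference of -0.15 (-0.42 to 0.12). Both ferritin subunits had estimates above 0, Fth1 at 0.10 (-0.10 to 0.31) and Ftl1 at 0.16 (-0.082 to 0.40), and reads of both can be shared with pseudogenes. Tfrc, the transferrin receptor of most cells, was at 7.0003, 11.3 and 20.2 CPM in AXB and 6.63, 12.3 and 27.5 CPM in BXA, a difference of -0.30 (-0.88 to 0.28). Slc39a14, the transporter that brings non-transferrin iron into hepatocytes, had an unadjusted p under 0.05. It was at 249, 358.4 and 438 CPM in AXB and 254, 305 and 377 CPM in BXA, a difference of 0.24 (0.019 to 0.47, unadjusted p = 0.0354, adjusted p = 0.9997). With limma on log2(TPM + 1) it was 0.16 (unadjusted p = 0.182).

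Haem handling gave the second such gene. Hpx, which encodes the haem scavenger hemopexin, was at 3204, 4455 and 7072 CPM in AXB and 2974, 3381 and 5149 CPM in BXA, a difference of 0.32 (0.031 to 0.61, unadjusted p = 0.0318, adjusted p = 0.9997). AXB5 and BXA2 were the highest lines of their families. Without AXB5 the difference was 0.20, and the unadjusted p reached 0.152 over the alternatives. Hmox1, haem oxygenase 1, differed by -0.092 (-0.62 to 0.44). The ends of the list were Heph, a ferroxidase gene, at -0.31 (-0.95 to 0.33) and Alas1, the first enzyme of haem synthesis, at 0.34 (-0.46 to 1.14). Lcn2, the siderophore-binding acute phase protein, had the widest interval, at 0.16 (-1.37 to 1.69), with AXB5 at 336 CPM, BXA2 at 316.4 CPM and medians of 35.9 and 35.2 CPM.

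**Figure D4:**
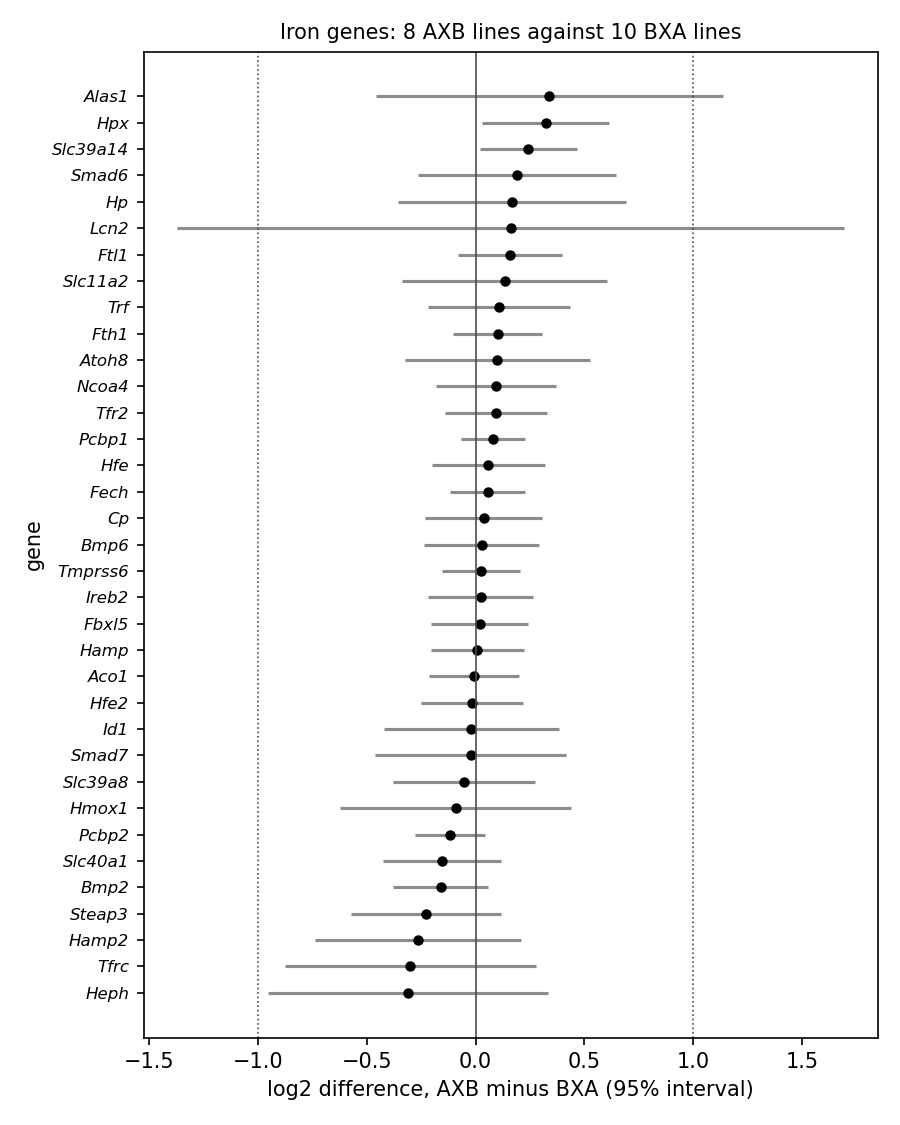
Log2 difference between 8 AXB and 10 BXA lines (AXB minus BXA) for the 35 iron genes, with 95% intervals and dotted lines at 2-fold. Only the intervals of Alas1 and Lcn2 cross a dotted line, and those of Hpx and Slc39a14 exclude 0 in this fit.

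Genes at loci known to differ between the parents were set beside the 2 parental libraries. Hc, which encodes complement C5 and carries a null allele in A/J, split the libraries into separate levels. AXB10, BXA1, BXA2, BXA4 and BXA8 were at 684.7 to 1349.9 CPM and the other 15 libraries at 133 to 295 CPM, beside 235 CPM in A/J and 1028 CPM in C57BL/6J. The high level was thus seen in 1 of 10 AXB and 4 of 10 BXA libraries, and the family difference was -0.37 (-1.42 to 0.68). That value depended on AXB10, without which it was -1.05 (unadjusted p = 0.0197). Glo1, glyoxalase 1, is duplicated in A/J. It was at 433 to 676 CPM in AXB5, AXB8, AXB12, AXB15 and at 566 CPM in BXA26, beside 485 CPM in A/J and 181 CPM in C57BL/6J. It lay nearer A/J in 4 of 10 AXB and 2 of 10 BXA libraries, and the family difference was 0.45 (-0.17 to 1.06). The substrains AXB19, AXB19a and AXB19b were at 205, 169 and 199 CPM, nearer C57BL/6J.

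The Naip genes, neighbours on chromosome 13 that encode sensors of bacterial proteins, were lower in A/J than in C57BL/6J. Naip2 (chromosome 13 at 100144063 to 100202092) was at 2.68, 3.43 and 15.2 CPM in AXB lines and 2.98, 10.48 and 16.9 CPM in BXA lines, with A/J at 2.75 and C57BL/6J at 15.8 CPM. It lay nearer A/J in 7 of 10 AXB and 2 of 10 BXA libraries, and the difference was -0.81 (-1.66 to 0.038, unadjusted p = 0.0599). Naip5 differed by -0.49 (-0.97 to -0.0049, unadjusted p = 0.0480) and Naip6 by -0.44 (-1.003 to 0.11). These genes share a locus and a sequence family, so they are not separate observations, and Gfm2, described above, lies on the same chromosome at 97137937.

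For Nnt, Dysf and Ahr nearly every library stood on 1 side. Nnt, the nicotinamide nucleotide transhydrogenase gene that carries a deletion in C57BL/6J, has 2 entries in the table. The first (ENSMUSG00000025453) and the second (ENSMUSG00000116207) were at 14.1 or 40.5 CPM in C57BL/6J and 49.3 or 149 CPM in A/J, and all 20 libraries lay nearer A/J for both. Dysf, which encodes the membrane repair protein dysferlin and is disrupted by a transposon in A/J, was at 0.258 CPM in A/J and 17.4 CPM in C57BL/6J. Every AXB and BXA library lay nearer C57BL/6J, at 6.28 to 18.8 CPM. Nnt and Dysf thus gave no split of the strains by parental level, and the reason was not tested. Ahr, the aryl hydrocarbon receptor gene, lay nearer A/J (45.5 CPM) than C57BL/6J (103.8 CPM) in 10 of 10 AXB and 9 of 10 BXA libraries. Cd5l, a macrophage marker, lay nearer A/J (89.8 CPM) than C57BL/6J (252 CPM) in 10 of 10 AXB and 7 of 10 BXA libraries. Btbd9, Gbp2b and Apoa2 were within 2-fold between the parents, so no side was given. Over the 12 listed loci 4 estimates were above 0 and 8 below, with a median of -0.22.

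In bulk liver, fewer cells of a type and less RNA per cell cannot be told apart. Macrophage and Kupffer cell markers had lower estimates in AXB in 17 of 19 genes, with a median of -0.28 against -0.0017 over all genes, and none was called. Summed over the list, AXB lines were at 534, 711 and 778 CPM and BXA lines at 460, 754.2 and 1242 CPM. All AXB lines thus lay inside the BXA range, and BXA2, BXA11 and BXA16 were above 1000 CPM. The parents were at 662 (A/J) and 1262 CPM (C57BL/6J). Adgre1, the macrophage surface receptor F4/80, had the smallest p of the list, at 13.8 against 20.1 CPM in the medians and a difference of -0.58 (-1.02 to -0.15, unadjusted p = 0.0114), or -0.39 with limma on log2(TPM + 1) (unadjusted p = 0.129). In this list 3 of 19 genes had an unadjusted p under 0.05, where 1.24% of all genes did in that direction. Clec4f, a Kupffer cell lectin, differed by -0.39 and Csf1r, the receptor for macrophage colony-stimulating factor, by -0.44. In alternative fits both rose above an unadjusted p of 0.05. It was 0.0744 for Clec4f with limma on log2(TPM + 0.1) and 0.0599 for Csf1r without BXA2. Leaving out each line in turn kept the median of the list between -0.35 and -0.21. Such fits cannot show whether the median depends on several high BXA lines together, which was not tested. Stellate cell and fibrosis markers were lower in AXB in 13 of 16 genes, with a median of -0.099 and with 2 of them, Lum and Tagln, under an unadjusted p of 0.05, beside the 1.24% of all genes in that direction. Lum, the collagen-binding proteoglycan lumican, differed by -0.54 (-0.93 to -0.15). Tagln had an unadjusted p of 0.158 with limma on log2(TPM + 1). The median of that list was 0.0070 without BXA11.

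Interferon response genes had estimates above 0 in all 24 of 24 genes, with a median of 0.34, from Irf1 at 0.047 to Ifit1 at 0.74. None was called, and only Stat2, at 0.22, had an unadjusted p under 0.05 (0.0482, and 0.659 with limma on log2(TPM + 1)), beside 0.938% of all genes in that direction. The summed level was 486, 976 and 1913 CPM in AXB lines and 644, 898 and 1328 CPM in BXA lines. AXB8 at 1913 CPM and AXB12 at 1863 CPM stood above every other library, BXA8 was next at 1328 CPM, and C57BL/6J had 1691 CPM and A/J 543 CPM. Without AXB8 the median was 0.082 and 15 of the 24 genes were above 0. That all 24 shared a sign thus depended on AXB8, while the median stayed above 0 without it.

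Acute phase genes also depended on 1 line. Estimates were above 0 in 18 of 20 genes, with a median of 0.15, and Saa1 and Saa2, the serum amyloid A genes, stood at 1.23 and 1.26. With limma on log2(TPM + 1) they stood at -0.059 and -0.20. The summed level was 55117 CPM in AXB5 and 20703 to 37619 CPM in all other AXB and BXA lines. Without AXB5 the median was -0.063 and 4 of the 20 were above 0.

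Male-biased liver genes, which follow the pulses of growth hormone, had estimates above 0 in 18 of 21 genes, with a median of 0.92. Their summed level was 388, 1702 and 9967 CPM in AXB lines and 376, 1412 and 5260 CPM in BXA lines, with AXB10 highest among AXB and BXA26 highest among BXA. Mup20, a major urinary protein gene, was at 7.34, 172 and 3450 CPM in AXB and 3.36, 36.7 and 469 CPM in BXA. Without AXB10 the median of the list was 0.015. Mup1 had the opposite sign, at -3.41, with 1927 CPM in BXA26 and 88.3 CPM at most in AXB, but 0.10 with limma on log2(TPM + 1), and Mup genes can share reads. Female-biased genes were below 0 in 14 of 19, with a median of -0.32 and Sult2a1, a sulfotransferase gene, at -3.84, where BXA12 held 85.04% of the BXA sum. With all 20 libraries as separate strains the median of the female-biased list was 0.019.

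Erythroid markers had a median of 0.81 over 7 tested genes, with sums of 22.1, 177 and 407 CPM in AXB lines and 13.6, 62.1 and 291 CPM in BXA lines. Alas2, the erythroid enzyme of haem synthesis, differed by 1.01 (0.074 to 1.94, unadjusted p = 0.0359). AXB10 was at 82.5 CPM and the other AXB libraries at 6.51 to 23.4 CPM, and without AXB10 the difference was 0.35 (unadjusted p = 0.292). Hepatocyte markers, which check the tissue label, had 14 of 16 estimates above 0, a median of 0.051 and sums of 100189 to 151372 CPM in AXB and 110984 to 163246 CPM in BXA. Cholesterol synthesis genes had 21 of 23 above 0 with a median of 0.060 and all 23 intervals within 2-fold. That median was -0.061 when AXB19a alone stood for the AXB19 line and 0.22 when AXB19 did. Lipogenesis, bile acid, NRF2 and endothelial lists had medians between -0.031 and 0.026, as did fatty acid oxidation, proliferation and MHC genes. Bile duct markers had 7 of 8 estimates below 0 with a median of -0.21, and circadian genes 13 of 16 above 0 with a median of 0.058. None of these genes was called. Markers of the exocrine pancreas, lymphocytes and neutrophils were low, at sums of at most 17.6, 22.1 and 67.8 CPM.

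**Figure D5:**
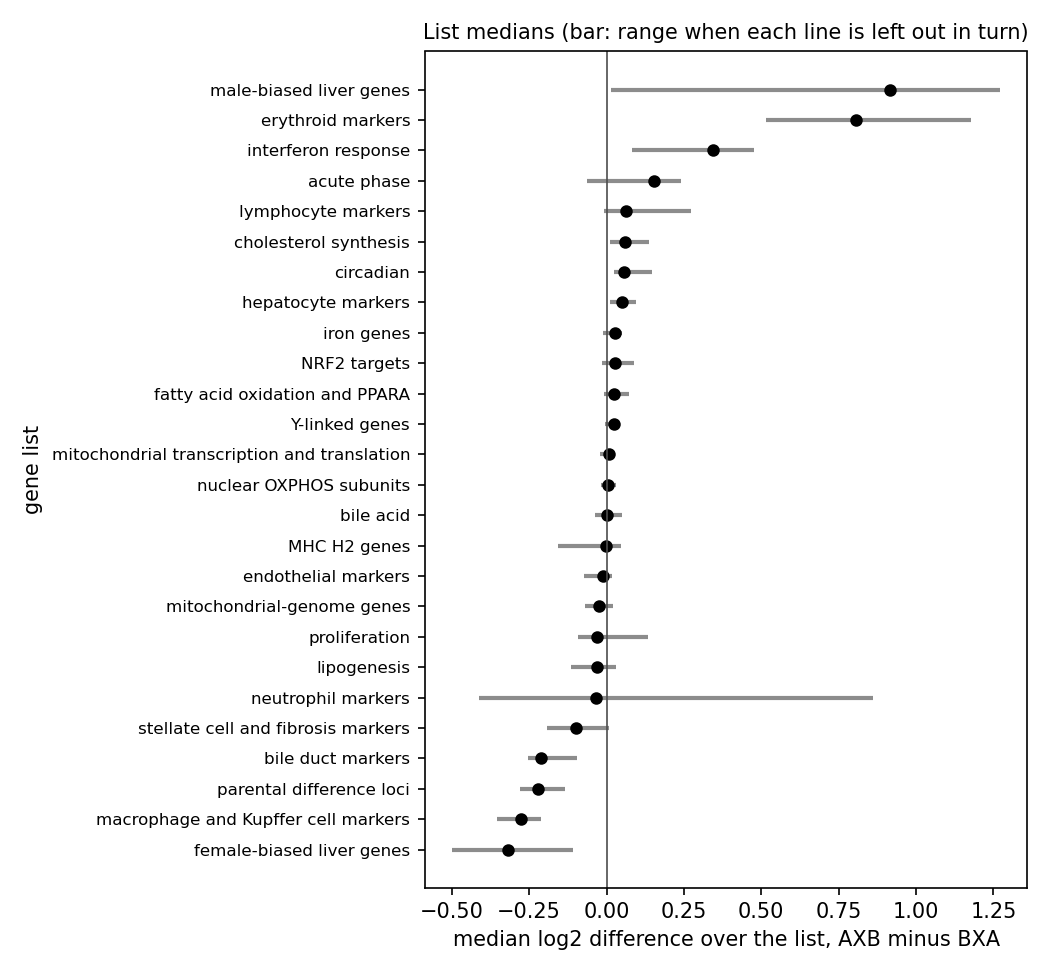
Median log2 difference (AXB minus BXA) over the tested members of each gene list, as points, with bars for the range when each line was left out in turn. The bars of the male-biased, interferon and acute phase lists reach 0.015, 0.082 and -0.063, while that of the macrophage list runs from -0.35 to -0.21.

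Single lines also carried part of the largest differences. Of the 68 genes with estimates over 2-fold, 42 were higher in AXB and 26 in BXA, and 21 had an unadjusted p under 0.05. In 25 of them a single line held more than 50% of the summed level of the higher family, and AXB10 was that line in 9. Besides Serpina1e they included Scara5, a ferritin receptor gene, at 50.2 CPM in AXB10 against a median of 2.09 CPM in AXB and 1.28 CPM in BXA, with a difference of 2.03 (0.18 to 3.87), or -0.21 with DESeq2. The genes of this paragraph were chosen after their values were seen.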

How the data were processed

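The deposited table holds estimated counts per Ensembl gene for 115 panel libraries, beside a second table in which the authors give TPM. The submitters' processing notes name kallisto 0.46 and mm10, whose roles are not given in the sources used here, nor is the strand used in counting. Libraries were made with a strand-specific mRNA kit, per the labels. The values are not whole, so the estimated counts were rounded before testing, which the plan had foreseen for such values. Symbols and positions come from GENCODE M21 (GRCm38), which matched 35691 of 35711 identifiers.

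Lines were compared with edgeR 4.0.16 (quasi-likelihood, robust, TMM factors, filterByExpr by family, no covariates) in R 4.3.3, with Benjamini-Hochberg adjustment over all genes tested and a threshold of 0.05. Log2 CPM used a prior count of 2. Single values per line were tested with exact two-sided permutation tests, and their intervals are the shifts with p over 0.05 in that test. Alternatives used DESeq2 1.42.0 and limma 3.58.1 on log2(TPM + 1) and log2(TPM + 0.1), for genes with TPM of at least 0.5 in 8 lines. Over all genes the median difference was -0.043 and -0.049 in these limma fits, against -0.0017 in the main fit. The models were tested on simulated data with the same dispersion for every gene and no outlying lines. That simulation cannot show how the models treat genes carried by a single line. Python 3.11.15 and matplotlib 3.10.9 drew the figures.

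Named genes were the Y-linked and mitochondrial genes, the iron genes, the members of each list with the lowest and highest difference, and, as fewer than 5 genes were called in a direction, the 5 with the smallest p in each direction, passing over predicted genes, pseudogenes and genes under 1 CPM. Stat2, Adgre1, Clec4f, Csf1r, Lum, Tagln, Alas2, Saa1, Mup20, Rnase4, the other Serpina1 genes and others were chosen after their values were seen. The strains and lists were chosen with earlier results of these data known. Nothing identifies separate litters or batches, so p-values set the family difference against the spread between lines. Each line is a single mouse except AXB19, which pools the mice of its substrains.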

Additional observations from a re-analysis of the deposited data

Results flagged for a closer look

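Of 158 checks of whether 1 line stood apart from the rest of its family in a named value, 11 did. In these the gap to the nearest line, on the log2 scale, was large against the range of the family. Chance gives such a gap in about 1 in 20 groups, so a count of this size carries no weight by itself. Hc was at 1349.9 CPM in AXB10, the 1 AXB line at the C57BL/6J level. Trf, the transferrin gene, was high in AXB15 at 25524 CPM and in BXA2 at 28596 CPM. Fth1 (1183 CPM) and Ddx3y (91.4 CPM) were high and Kdm5d (20.01 CPM) was low in BXA12. Id1 was high in AXB8 at 58.5 CPM, and Naip6 was low in BXA8 at 1.13 CPM. Among mitochondrial genes mt-Nd4l was low in BXA2 at 569 CPM. mt-Atp8 was low in AXB4 at 15.995 CPM and in BXA11 at 15.8 CPM, beside 13.5 CPM in A/J, and these were the lines with the highest mitochondrial shares of their families, 9.11% and 9.82%. mt-Atp8 overlaps mt-Atp6 in the genome, so its reads are uncertain.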

How the results depend on the processing

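All 29 alternatives for the test over all genes called 0 genes (other scaling, filters, tools, handling of the AXB19 substrains, and each line left out in turn). The smallest adjusted p was 0.272, without AXB12. With no filter on low counts 1029 of 24325 genes had an unadjusted p under 0.05, and leaving out lines moved the count of 285 by less than 1.5 times. The difference in mitochondrial share ran from -0.510 to -0.0192 percentage points with lines left out and stayed below 0. The Y-linked difference was 0.0075 with all 20 libraries as separate strains, -0.10 on TPM and -0.056 to 0.037 with lines left out. The share of genes nearer A/J differed by -0.543 points at 8-fold between parents and by -1.26 to 1.48 with lines left out. For the X chromosome the difference was 6.07 at 2-fold and -2.99 to 2.21 with lines left out. The last 3 differences changed sign among these settings, and none of these differences had a p under 0.05. Of 75 named genes 39 kept their sign in all alternatives, among them all 10 with the smallest p, and the largest difference among the other 36 was 0.19. Counting protein-coding mitochondrial genes alone could not differ, since the table holds no others. The alternatives on parental genes, and AXB19a kept apart from its substrains, were chosen after seeing the data. No paired analysis was possible because the strain numbers name separately bred strains. Genes of a few CPM are limited by depth, and 1 mouse per strain limits all differences.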

Other observations

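Of the 442 genes over 4-fold apart between the parental libraries, a median of 9.5 of the 20 AXB and BXA libraries lay nearer A/J per gene, and 11 genes had every library on 1 side. On the C57BL/6J side were Dysf, Mcm5, Egr1, Slfn2, Ly6a, Rps4l, Gm11808 and Gm10273. Ly6a, the stem cell antigen Sca-1, was at 0.860 CPM in A/J, 31.1 CPM in C57BL/6J and 5.51 to 53.1 CPM in the families. Slfn2, a gene of lymphoid and myeloid cells, was at 0 CPM in A/J, 10.9 CPM in C57BL/6J and 1.37 to 8.85 CPM in the families. Egr1, an immediate early transcription factor gene, was at 149.9 CPM in A/J, 16.5 CPM in C57BL/6J and 2.70 to 43.7 CPM in the families. On the A/J side were Sco2, Gm28036 and Gm16867. Sco2, a chaperone for cytochrome c oxidase assembly, was at 25.4 CPM in A/J, 6.13 CPM in C57BL/6J and 16.3 to 73.2 CPM in the families. Each parent was a single mouse, so whether the strain or the mouse differed was not tested.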
